A study of Mus musculus with 24 samples.

Results

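The effect of a diet containing medium-chain triglycerides (MCT) was examined in the hippocampus of wild-type mice by comparing the 4 libraries of WT mice fed the MCT diet with the 4 libraries of WT mice fed the control diet, 8 of the 24 libraries of the study. The members of the comparison were taken from the diet and genotype given for each sample. The study measured polyadenylated RNA in bulk hippocampus of female mice of 2 genotypes, B6129SF2/J (WT) and the Alzheimer model 3xTg, on 3 diets. Feeding began at 3 months of age and went on for 6 months. By content, carbohydrate made up 70%, long-chain fat 20% and protein 10% of the control feed, with 4.1 kcal in each g. The MCT feed replaced 10 of those 20% with medium-chain fat, octanoic (C8:0) and decanoic (C10:0) acids at 3 to 2, and kept carbohydrate, protein and energy as in the control. The ketogenic feed of the remaining groups had no carbohydrate, with 90% long-chain fat, 10% protein and 6.7 kcal per g. B6129SF2/J is a hybrid stock bred from C57BL/6J and 129S1/SvImJ, so that its mice are not genetically identical to each other. The 3xTg mice carry human APP and MAPT transgenes driven by the neuronal Thy1 promoter. All groups share sex, tissue, starting age and feeding time. The labels number the samples of a group without saying that each is a separate mouse, and they give no litter, cage or collection day. The p-values therefore rest on a spread between samples that may be technical. In the main limma fits this spread is taken over the libraries of all 6 groups.

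Medium-chain fatty acids are taken up from the gut into the portal blood and enter mitochondria largely without the carnitine shuttle that long-chain fatty acids need. The liver oxidizes them readily and releases ketone bodies even when carbohydrate is eaten. Brain cells import ketone bodies through monocarboxylate transporters and convert them to acetyl-CoA through 3-oxoacid CoA-transferase (Oxct1), and astrocytes can oxidize octanoate and decanoate directly.

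Between 10.1 M and 17.5 M reads per library stood behind the 8 sets of values, and 15793 to 16186 genes were detected in each. The library labelled 3xTg ketogenic 2, outside the comparison, had 2.65 M reads and 14608 genes detected. It shares in the spread of the main limma fits, and its own effect on them was not tested. Values are normalised counts, that is read counts divided by a size factor per library. Thy1, a neuronal surface protein whose promoter drives the transgenes, measured 7045, 6952, 7793 and 7713 in control libraries 1 to 4 and 8002, 23048, 8137 and 7570.3 in MCT libraries 1 to 4. The library labelled MCT 2 was the only one of the 12 WT libraries above 15000, a level that 10 of the 12 libraries labelled 3xTg also passed. It had the highest App value of the 8 as well, with 23256, 23391, 24902 and 25302 in the control libraries against 24684, 30297, 23958 and 22877 in the MCT libraries. On the first principal component of all 24 libraries, which held 22.8% of the variance, it lay at -16.5 while the other 7 lay between 8.17 and 15.8. The library labelled 3xTg ketogenic 2 lay lowest of all, at -42.2. Ttr, the transthyretin of the choroid plexus, separated another library, with 11389.5, 286, 278 and 41.2 in the control libraries and 55.1, 62.9, 224 and 121 in the MCT libraries. Control library 1 alone was above 3000. Calls and list counts are therefore given as labelled (4 against 4), then without the library labelled MCT 2 (3 MCT against 4 control), and then also without control library 1 (3 against 3). All 11 dentate granule cell markers and 11 of 11 CA2 and CA3 markers passed the filter on low values. All 8 CA1 markers found among the measured genes, of 9 listed, passed it too. So did 17 of 17 markers of neocortex, thalamus and striatum, so passing it does not tell these tissues apart.

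Few transcripts differed between the diets beyond the spread between libraries. As labelled, 1 of 14162 tested genes passed an adjusted p of 0.05 (0.00706%), Eif3j2, which was lower on MCT (limma with Benjamini-Hochberg adjustment). Without the library labelled MCT 2, 1 of 14156 genes passed (0.00706%), Fam227b, also lower. Without control library 1 as well, 0 of 14133 passed in limma (0.0%), 360 had an unadjusted p under 0.05 (2.55%), and edgeR and DESeq2 each called 0. On the comparison as labelled edgeR called 0 genes and DESeq2 3, namely Eif3j2, Exd1 and Pla2g4e, with adjusted p of 0.00723, 0.00612 and 0.0445. In limma 679 genes (4.79%) had an unadjusted p under 0.05, 299 of them higher (2.11%) and 380 lower (2.68%) on MCT. The 2 diet groups did not overlap for 407 genes (2.87%) as labelled, of which 219 were higher (1.55%) and 188 lower (1.33%). Without the library labelled MCT 2 these counts were 463 (3.27%) at the unadjusted p and 648 (4.58%) without overlap, and without control library 1 as well 1046 (7.4%) did not overlap, since fewer libraries separate more easily. The median log2 difference over all tested genes was -0.00465, its median size 0.0692 and the median standard error 0.0952.

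Eif3j2 and Eif3j1 encode the j subunit of translation initiation factor eIF3, which helps place the small ribosomal subunit on mRNA. Eif3j2 is a single-exon gene on chromosome 18 (43475418 to 43477796, GRCm38), and 90.8% of the 50-base windows of its transcript also occur in transcripts of Eif3j1 on chromosome 2 (122028546 to 122056598). Eif3j2 measured 48.3, 77.0, 57.0 and 36.7 in the control libraries and 1.64, 0, 2.10 and 2.01 in the MCT libraries. All 4 MCT libraries held 0 to 2 reads and every control library 41 or more, and the groups did not overlap. The log2 difference was -4.59 ± 0.76 (SE, 4 against 4, limma adjusted p 0.0420), -4.21 ± 0.81 without the library labelled MCT 2 (adjusted p 0.125) and -4.25 ± 0.89 without control library 1 as well (adjusted p 0.549). Of the 23 alternative fits 8 called it, with adjusted p from 2.04e-05 to 0.549. Its mean is under 32 normalised counts, and it is named outside the rule for named genes, as the single call. Leaving out any 1 of the 8 libraries ended the call, with adjusted p from 0.0564 to 0.323 and log2 differences from -4.77 to -4.21. These fits take the spread over all 6 groups, and Eif3j2 measured 3.31, 2.73 and 90.6 in the 3xTg control libraries. The limma adjusted p was 0.00086 with the 2 WT groups alone and 0.00012 with the WT libraries alone. It was 2.04e-05 without the 3 libraries whose Thy1 goes against the label. Eif3j1 went the other way, with 75.2, 25.2, 84.1 and 89.6 in the control libraries and 145, 145, 169 and 163 in the MCT libraries. Its log2 difference was 1.32 ± 0.53 and did not pass the test (limma adjusted p 0.989). Eif3j2 made up 39.1%, 75.3%, 40.4% and 29.1% of the reads of the pair in control libraries 1 to 4, with 95% Wilson intervals from 22.2% to 83.8%. In the MCT libraries its share was 1.12%, 0%, 1.23% and 1.22%, with upper bounds of 2.85% to 4.36%. These intervals cover counting error only. The summed level of the pair was 123 ± 16.0 on control and 157 ± 13.2 on MCT (SD, n = 4 each), a log2 difference of 0.35, so the sum differed far less than either gene and in the direction of Eif3j1. How reads that match both genes were counted is not stated in the labels, so the value of each gene is uncertain on its own.

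Several of the genes with the smallest p lay together on the genome. Of the 10 genes with an unadjusted p under 0.001, 4 started within chr2:118000001-123000000, a stretch with 88 of the 14045 tested genes that had a position (0.627%). This stretch was chosen after these values were seen and is described without a test. The diet groups did not overlap for 13 of its 88 genes (14.8%, 8 higher and 5 lower on MCT), against 392 of 13957 elsewhere (2.81%). An unadjusted p under 0.05 was reached by 17 of the 88 (19.3%), against 4.71% elsewhere. Without the library labelled MCT 2, 15 of the 88 did not overlap, against 4.58% of all tested genes in that comparison. Among 276 fixed windows of 5 Mb with at least 20 tested genes, chr2:120000001-125000000 ranked 1 both by non-overlapping genes (10 of 48) and by genes with p under 0.001.

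The 13 genes differ in function and share their position. The 250 bases before the start of 4 of them are shown, 2 lower and 2 higher on MCT, because these genes carry the finding: Pla2g4e (chr2:120245336-120245585, minus strand), Exd1 (chr2:119547628-119547877, minus strand), Ivd (chr2:118861744-118861993, plus strand) and Haus2, the first of its 2 starts (chr2:120609132-120609381, plus strand), from RefSeq on GRCm38.p6, 5′ to 3′ on the gene's strand, with each CG dinucleotide in capitals.
Pla2g4e: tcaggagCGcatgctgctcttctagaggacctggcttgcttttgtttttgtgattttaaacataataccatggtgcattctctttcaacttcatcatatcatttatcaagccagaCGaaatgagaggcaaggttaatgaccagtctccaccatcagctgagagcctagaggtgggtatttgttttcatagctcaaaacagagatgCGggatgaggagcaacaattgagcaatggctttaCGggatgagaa
Exd1: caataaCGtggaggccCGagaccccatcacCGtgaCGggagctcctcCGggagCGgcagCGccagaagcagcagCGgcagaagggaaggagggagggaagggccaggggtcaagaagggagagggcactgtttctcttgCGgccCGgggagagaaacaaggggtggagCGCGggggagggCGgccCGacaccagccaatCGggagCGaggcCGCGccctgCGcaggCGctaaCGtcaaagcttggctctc
Ivd: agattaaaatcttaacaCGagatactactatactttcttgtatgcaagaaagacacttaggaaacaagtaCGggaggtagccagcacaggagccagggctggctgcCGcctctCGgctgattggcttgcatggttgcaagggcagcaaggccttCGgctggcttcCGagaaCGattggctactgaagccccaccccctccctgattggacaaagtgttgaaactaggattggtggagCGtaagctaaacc
Haus2: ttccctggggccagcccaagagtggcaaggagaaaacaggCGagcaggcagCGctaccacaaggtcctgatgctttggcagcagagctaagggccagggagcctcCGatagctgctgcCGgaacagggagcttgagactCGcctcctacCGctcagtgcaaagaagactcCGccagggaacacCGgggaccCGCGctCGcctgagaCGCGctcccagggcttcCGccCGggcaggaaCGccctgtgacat
The Pla2g4e window holds 4 CG dinucleotides, the Exd1 window 21, the Ivd window 8 and the Haus2 window 16, with a median of 6 over 32851 RefSeq promoters. As few CG as before Pla2g4e are found in 44.4% of those promoters, and as many as before Exd1 in 16.3%. The second start of Haus2 has 22.

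Pla2g4e, a cytosolic phospholipase A2 family enzyme that makes N-acyl-phosphatidylethanolamines, had the largest difference of the 13. It measured 249.6, 451, 206 and 199.8 in the control libraries and 39.4, 32, 21 and 34.2 in the MCT libraries, so that the highest MCT library lay well below the lowest control library. The log2 difference was -3.04 ± 0.60 as labelled, -3.05 ± 0.66 without the library labelled MCT 2 and -3.07 ± 0.72 without control library 1 as well. It passed the test in none of these 3 fits (limma adjusted p 0.163, 0.266 and 0.713). Their spread is taken over all 6 groups, and Pla2g4e measured 28.7, 32.7 and 409 in the 3xTg control libraries. With the 3 libraries whose Thy1 goes against the label left out, the WT difference was -3.05 ± 0.33 (limma adjusted p 2.57e-05). Of 24 alternative fits 4 called it, among them limma fits of the 2 WT groups alone and of the WT libraries alone. Exd1, an exonuclease-domain protein of the piRNA pathway, measured 45.5, 68.6, 51.4 and 43.9 in the control libraries and 14.8, 14.3, 24.2 and 26.1 in the MCT libraries. Its log2 difference was -1.38 ± 0.25 (limma adjusted p 0.0760), and no MCT library reached the lowest control library. Rpap1, which binds RNA polymerase II, was also lower without overlap, with a log2 difference of -0.24 ± 0.10. Bloc1s6, a subunit of the BLOC-1 complex of lysosome-related organelles, measured 426, 485, 435 and 418 in the control libraries and 361, 379, 396 and 297 in the MCT libraries, a log2 difference of -0.31 ± 0.12. Serinc4, the fifth lower gene, measured 10.2, 9.81, 7.48 and 8.06 in the control libraries and 5.75, 6.62, 6.31 and 3.02 in the MCT libraries, a level of few reads. By the GENCODE annotation of GRCm38 Pla2g4e spans chr2:120166412-120245335 and Exd1 chr2:119516505-119547627, both protein-coding genes on the minus strand.

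The 8 higher genes had log2 differences from 0.15 to 1.48. Ivd, the isovaleryl-CoA dehydrogenase of leucine breakdown, measured 1033, 759, 1006 and 1017 in the control libraries and 1202, 1325, 1294 and 1223 in the MCT libraries, a log2 difference of 0.41 ± 0.11. Haus2, a subunit of the augmin complex of the mitotic spindle, measured 370.2, 318, 433 and 392 in the control libraries and 474, 504, 505 and 497 in the MCT libraries, a log2 difference of 0.40 ± 0.10. Mfap1b, a spliceosome-associated protein gene, measured 198, 126, 200.03 and 194 in the control libraries and 259, 283, 256 and 253 in the MCT libraries, a log2 difference of 0.57 ± 0.14. B2m, the light chain of MHC class I molecules, measured 1033, 901, 964 and 1028 in the control libraries and 1091, 1162, 1209.8 and 1193 in the MCT libraries, a log2 difference of 0.25 ± 0.12. None of the 4 passed the test (limma adjusted p 0.989, 0.697, 0.945 and 0.989). Capn3, a calpain protease, Strc, the stereocilin of the inner ear, and Serf2 had log2 differences of 0.42 ± 0.18, 1.48 ± 0.61 and 0.15 ± 0.06, and Eif3j1 is given above. Mfap1b has a similar neighbour, Mfap1a, in which 62.5% of the 50-base windows of its transcript occur, and the sum of the 2 was 553 ± 30.6 on control and 642 ± 35.2 on MCT (SD, n = 4 each). Serf2 and Serinc4 overlap each other on opposite strands, and the labels do not say whether counting used strand.

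**Figure D1:**
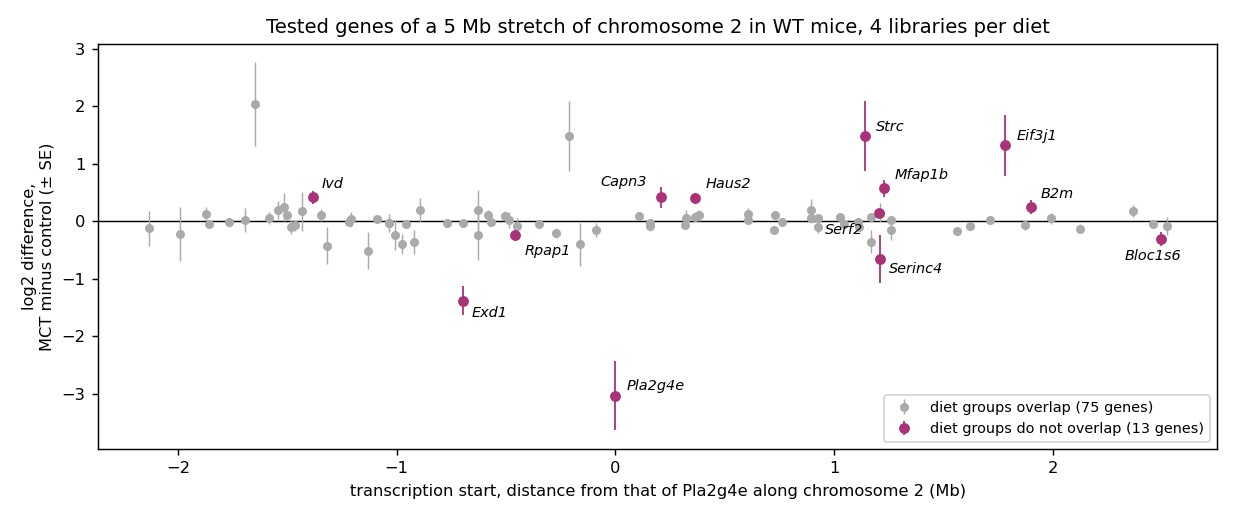
Log2 difference (MCT minus control, ± SE, 4 libraries per diet) of the 88 tested genes of chr2:118000001-123000000 against the distance of the transcription start from that of Pla2g4e in Mb. The 13 genes whose diet groups do not overlap are named and lie on both sides of 0, with Pla2g4e lowest at -3.04, among 75 genes whose groups overlap.

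The same genes also varied across the libraries of the other groups. Over all 24 libraries Pla2g4e took 3 separate levels. It lay between 21 and 55.3 in 14 libraries, which were all 4 WT MCT libraries and 10 of the 12 libraries labelled 3xTg, the control-diet ones among them. It lay between 187 and 249.6 in 6 libraries, of which 3 were WT control, 2 WT ketogenic and 1 3xTg ketogenic. It lay between 409 and 509.7 in 4 libraries, 1 WT control, 2 WT ketogenic and 1 3xTg control. Eif3j2 followed these levels, with 0 to 11.8 in the 14 libraries, 36.7 to 57.0 in the 6 and 77.0 to 101 in the 4. Eif3j1 ran the opposite way, with 127 to 178.6, 75.2 to 100.2 and 13.8 to 25.2. The 2 libraries labelled 3xTg outside the low level, 1 on control and 1 on ketogenic diet, are those with Thy1 under 15000. Within WT the low level was thus seen on the MCT diet alone, in the library labelled MCT 2 and in the other 3, and within the libraries with Thy1 above 15000 it was seen on every diet. The labels do not give the genotype of single mice at these genes, and its part in the difference was not tested.

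**Figure D2:**
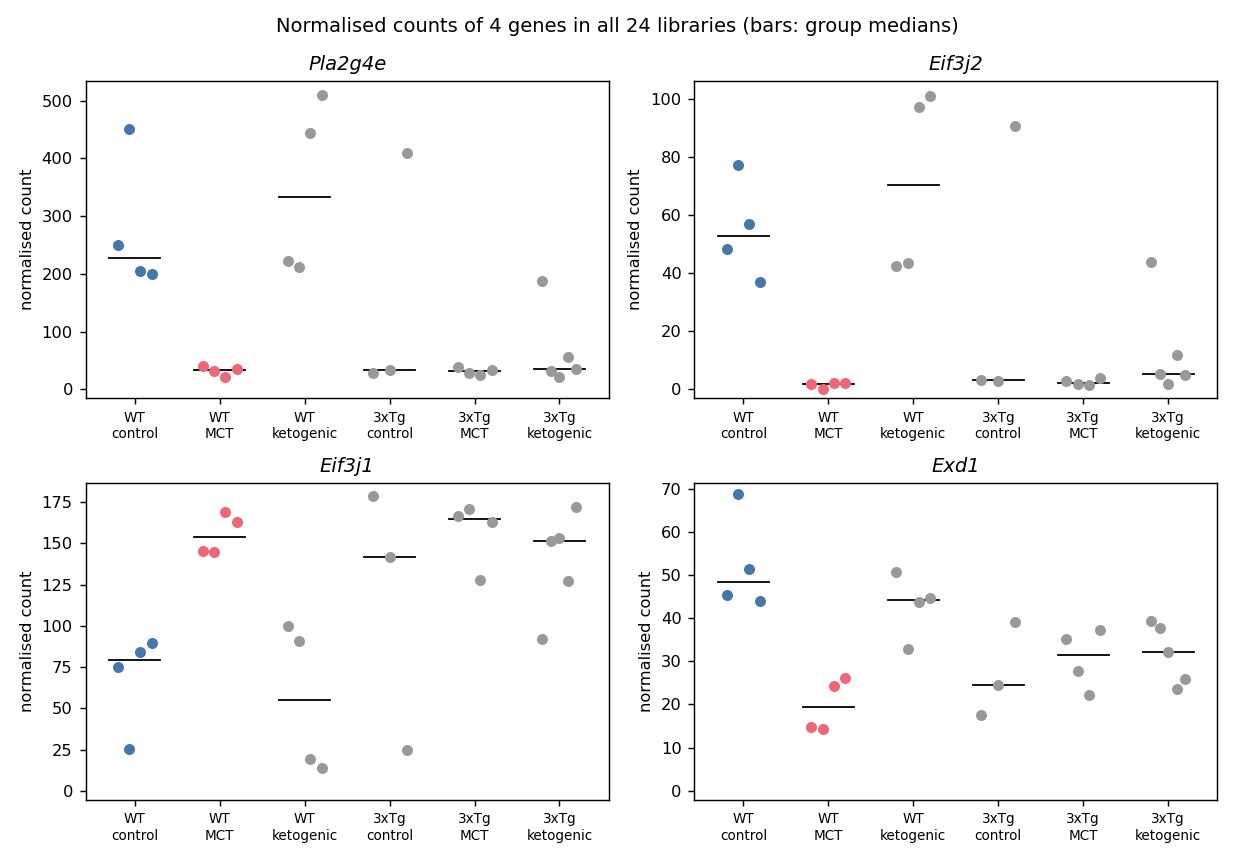
Normalised counts of Pla2g4e, Eif3j2, Eif3j1 and Exd1 in each of the 24 libraries by genotype and diet, with bars at the group medians (WT control blue, WT MCT red, other groups grey). The 4 WT MCT libraries lie at 21 to 39.4 for Pla2g4e, below all WT control and WT ketogenic libraries and among most 3xTg libraries of every diet.

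Outside this stretch Eif3j2 had the smallest p, and a predicted gene on chromosome 6, Gm9008, which the rule for named genes leaves out, a log2 difference of -3.37 that was not called. Among genes with a mean of at least 32, none higher on MCT was called, and the 8 with the smallest p were Hspa8, Haus2, Mfap1b, Trappc4, Ivd, Pigf, Zfp963 and Khdrbs3. Trappc4, of the TRAPP complexes that tether vesicles, measured 423, 422, 500.1 and 513 in the control libraries and 539.9, 583, 530.2 and 585 in the MCT libraries, a log2 difference of 0.27 ± 0.07. Pigf, which helps build GPI anchors, measured 129, 129, 128 and 139.8 in the control libraries and 160.2, 177, 154 and 186 in the MCT libraries, a log2 difference of 0.36 ± 0.10. Khdrbs3, an RNA-binding splicing regulator, measured 2644, 2977, 2973 and 3146 in the control libraries and 3465, 3309.6, 3398 and 3360.4 in the MCT libraries, a log2 difference of 0.21 ± 0.06. The diet groups of these 3 genes did not overlap, but each had a limma adjusted p of 0.989. Zfp963, a zinc finger gene, had a log2 difference of 0.43 ± 0.12 with overlapping groups.

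The 8 genes lower on MCT by the same rule were Exd1, Pla2g4e, Man2b2, Agfg2, Erich3, Zfp646, Fxyd2 and Rnf217. Man2b2, an alpha-mannosidase, measured 274, 314, 313 and 288 in the control libraries and 249, 231, 194 and 251 in the MCT libraries, a log2 difference of -0.37 ± 0.10. Agfg2, with an Arf GAP domain, measured 721, 682, 812 and 778 in the control libraries and 625, 663, 652 and 584 in the MCT libraries, a log2 difference of -0.24 ± 0.07. Rnf217, a RING finger protein, measured 482, 532, 457 and 441 in the control libraries and 408, 364, 397 and 382 in the MCT libraries, a log2 difference of -0.30 ± 0.09. Erich3 and Zfp646 had log2 differences of -0.30 ± 0.09 and -0.27 ± 0.08, and their groups did not overlap either. Fxyd2, a regulatory subunit of the sodium pump, measured 68.7, 65.8, 55.1 and 26 on control and 23.8, 25.4, 24.2 and 30.2 on MCT, where control library 4 lay within the MCT range. The limma adjusted p of Man2b2, Agfg2, Rnf217, Erich3, Zfp646 and Fxyd2 was 0.989 in each case. Among the genes with p under 0.001, Susd2 at a log2 difference of -0.89 and Ppp1r3b, a glycogen-targeting subunit of protein phosphatase 1, at -1.11 had a mean under the 32 that this rule asks for.

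Leaving out the library labelled MCT 2 brought forward further genes, and in Fam227b and Trub1 it stood apart from the other MCT libraries. Fam227b measured 13.9, 23.8, 19.6 and 12.5 in the control libraries and 4.11, 19.9, 2.10 and 2.01 in the MCT libraries. Without the library labelled MCT 2 the log2 difference was -2.31 ± 0.37 (limma adjusted p 0.0256), edgeR gave an adjusted p of 0.156 and DESeq2 one of 0.0435. Of 19 alternatives 9 called it (adjusted p from 0.00951 to 0.418), and leaving out 1 further library ended the call in 5 of 7 cases. It is the single call of that fit and is named outside the rule, as its level is low. As labelled the difference was -1.67 ± 0.46 and did not pass, and the library labelled MCT 2 was at the control level. Fam227b lies on chromosome 2 as well (125983483 to 126152004), outside the stretch above. Trub1, a tRNA pseudouridine synthase, measured 367, 387, 347 and 326 in the control libraries and 277, 419, 270.4 and 264 in the MCT libraries. Its log2 difference was -0.24 ± 0.10 as labelled and -0.39 ± 0.08 without the library labelled MCT 2, where the groups did not overlap (limma adjusted p 0.125). Slc26a10 had log2 differences of -0.84 ± 0.25 and -1.10 ± 0.24, and Sec24d, of the COPII coat, -0.22 ± 0.07 and -0.26 ± 0.07. On the higher side the same fit added Sod3, the extracellular superoxide dismutase, with 41.8, 25.2, 30.8 and 64.5 in the control libraries and 64.1, 56.3, 71.5 and 89.5 in the MCT libraries and a log2 difference of 0.95 ± 0.28. It also added Rem2, a GTPase that regulates calcium channels, at 0.39 ± 0.12, and the collagen gene Col20a1 at 1.0 ± 0.32. Without control library 1 as well, Rbm43 joined the higher genes at 0.56 ± 0.17. None of the genes named here after Fam227b was called in limma, with adjusted p from 0.125 upward. DESeq2 called 5 genes without the library labelled MCT 2, Fam227b, Trub1, Slc26a10, Eif3j2 and Exd1, each at an adjusted p of 0.0435. Slc26a10 was also called in limma when MCT library 1 was left out as well (adjusted p 0.0426).

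The genes that carry medium-chain fatty acids and ketone bodies into oxidation differed little between the diets. Acadm, the medium-chain acyl-CoA dehydrogenase, measured 552, 531, 504 and 528 in the control libraries and 519, 541, 562 and 603 in the MCT libraries, a log2 difference of 0.07 ± 0.08. Hadh, the next dehydrogenase of beta-oxidation, measured 259.8, 303, 279 and 300.2 in the control libraries and 274, 322, 296 and 292 in the MCT libraries, a difference of 0.05 ± 0.08. Cpt1a, the carnitine palmitoyltransferase that admits long-chain fatty acids, measured 443, 427, 498 and 477 in the control libraries and 446, 516, 459 and 429 in the MCT libraries, a difference of 0.00 ± 0.07. For these 3 genes the diet groups overlapped throughout.

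Among the ketone body genes, Oxct1, which activates acetoacetate, was as labelled the 1 of 12 whose diet groups did not overlap, against 2.87% of all genes. Oxct1 measured 5089.8, 5088, 5419 and 5379 in the control libraries and 5534, 5805, 5463 and 5676 in the MCT libraries, a log2 difference of 0.10 ± 0.04 (limma adjusted p 0.989). Bdh1, the beta-hydroxybutyrate dehydrogenase, measured 462, 529.5, 544 and 482 in the control libraries and 532, 494, 451 and 468 in the MCT libraries, a difference of -0.05 ± 0.07. Slc16a1, the monocarboxylate transporter Mct1, measured 936, 1132, 1166 and 1124 in the control libraries and 975, 735, 989.9 and 1005 in the MCT libraries, with the lowest value in the library labelled MCT 2. Its log2 difference was -0.24 ± 0.16 as labelled and -0.13 ± 0.17 without that library.

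Pdk4 and Angptl4 are induced by fatty acids through PPAR receptors in many tissues. Pdk4, which restrains pyruvate entry into mitochondria, measured 299.7, 233, 307 and 198 in the control libraries and 203, 476, 287 and 446 in the MCT libraries, a log2 difference of 0.39 ± 0.29 as labelled and 0.22 ± 0.31 without the library labelled MCT 2. Angptl4, an inhibitor of lipoprotein lipase, measured 17.6, 26.6, 34.6 and 37.6 in the control libraries and 31.2, 47.5, 33.7 and 34.2 in the MCT libraries, with log2 differences of 0.36 ± 0.22 as labelled and 0.02 ± 0.21 without the library labelled MCT 2 and control library 1. Neither passed the test, and the diet groups of both overlapped.

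**Figure D3:**
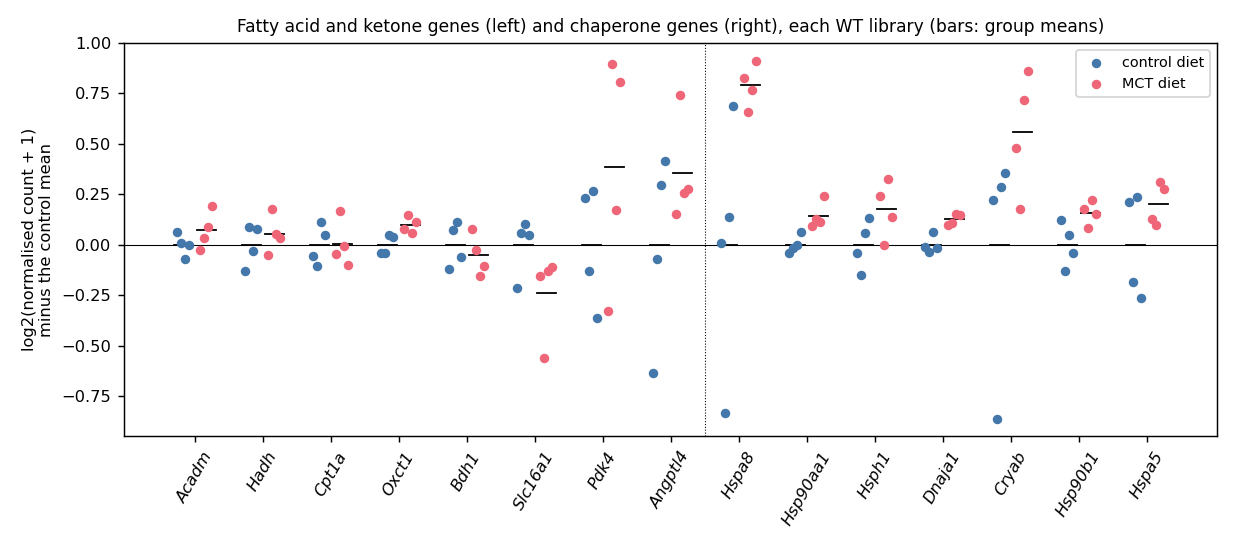
Values of 8 fatty acid and ketone genes and 7 chaperone genes in the 4 control (blue) and 4 MCT (red) WT libraries, as log2(normalised count + 1) minus the control mean, with bars at the group means. Oxct1, Hsp90aa1 and Dnaja1 separate the diets by small steps of 0.10 to 0.14, while Hspa8 and Cryab differ more and have a low value in control library 2.

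Lists of fuel genes differed as little. Over all tested genes 48.0% of differences were above 0 as labelled, 48.4% without the library labelled MCT 2 and 48.9% without control library 1 as well. List counts are given below in this order for the 3 comparisons, with the medians in parentheses. Genes of medium-chain fatty acid activation and beta-oxidation were higher on MCT in 7, 9 and 7 of 13 (0.03, 0.02 and 0.01), those of long-chain fatty acid import and oxidation in 12, 13 and 12 of 18 (0.04, 0.02 and 0.03), and those of peroxisomal oxidation in 7, 9 and 6 of 12 (0.03, 0.01 and 0.01). Ketone body genes were higher in 6, 4 and 6 of 12 (0.00, -0.03 and -0.03), and PPAR targets and regulators in 7, 7 and 10 of 15 (-0.01, 0.00 and 0.02). For fatty acid synthesis the counts were 6, 6 and 7 of 16 (-0.03, -0.03 and -0.01), for cholesterol synthesis 15, 12 and 9 of 23 (0.01, 0.00 and -0.04), and for glucose transport and glycolysis 14, 14 and 10 of 21 (0.04, 0.03 and -0.02). The sign of the median turned for ketone body, PPAR, cholesterol and glycolysis genes. No gene of these 8 lists was called. As labelled, 1 gene of the 23 on the cholesterol list did not overlap between the groups (2.87% of all genes did not), and 2, with Pmvk, in each of the other comparisons (4.58% and 7.4% of all genes). The gene without overlap as labelled was Sc5d, which makes 7-dehydrocholesterol, with 1362, 1342, 1319 and 1428 in the control libraries and 1526, 1516, 1507 and 1471 in the MCT libraries and a log2 difference of 0.14 ± 0.04 (limma adjusted p 0.989). Of the 7 receptors for fatty acids and ketone bodies 2 passed the filter on low values. Gpr84, the receptor for medium-chain fatty acids, measured 5.57, 18.2, 9.35 and 7.17 in the control libraries and 5.75, 11.0, 2.10 and 2.01 in the MCT libraries, a level of few reads, with a log2 difference of -0.95 ± 0.64 and overlapping groups.

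Most genes of the respiratory chain had slightly higher values on MCT. Of 43 tested nuclear subunits of oxidative phosphorylation, 39 were higher on MCT, with a median log2 difference of 0.06. Without the library labelled MCT 2, 41 were higher (median 0.07), and without control library 1 as well 36 (median 0.05). None was called, and 1 (Cox5a, at 0.12 ± 0.05) had an unadjusted p under 0.05. MCT library 4 was the highest of the 8 over this list, and control library 1 the lowest. Of 8 tested genes of the mitochondrial genome 7 were higher, with a median of 0.16 as labelled and 0.12 without both libraries. After quantile normalisation the median was 0. That setting gives each rank the same value in every library, so it cannot show a difference in genes that keep their rank. Nothing is concluded from this 0. mt-Nd4, a subunit of complex I, measured 61387, 56748, 62963 and 65288 on control and 66517, 76351, 62004 and 82433 on MCT, a log2 difference of 0.21 ± 0.08. The library labelled MCT 2 and MCT library 4 were high, and the other 2 lay within or just above the control range. Of the 13 genes of the list, 5 were not tested. Genes of pyruvate entry and the TCA cycle were higher in 18, 15 and 14 of 24 (0.05, 0.03 and 0.01), and those of the cytosolic ribosome in 27, 23 and 20 of 35 (0.04, 0.04 and 0.03).

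Heat shock chaperones were as labelled the list with the most members at an unadjusted p under 0.05, 5 of 14, all higher on MCT, against 2.11% of all genes in that direction. Without the library labelled MCT 2 there were 4, and without control library 1 as well 3, all higher. In either direction 3.27% and 2.55% of all genes reached this level in those 2 comparisons. The diet groups did not overlap for 2 of the 14 as labelled, 6 without the library labelled MCT 2 and 7 without control library 1 as well (2.87%, 4.58% and 7.4% of all genes). None was called, and the list median was 0.07 as labelled, 0.13 without the library labelled MCT 2 and 0.12 without control library 1 as well. Hspa8, the constitutive Hsc70, measured 3649, 2028, 3988 and 5828 in the control libraries and 6435, 5724, 6160.4 and 6820.4 in the MCT libraries. Control library 4 reached the MCT range and control library 2 lay well below the other controls. The log2 difference was 0.79 ± 0.19 (limma adjusted p 0.697), and leaving out control library 4 made it 1.02 and brought the adjusted p to 0.0369, the only 1 of the 8 such fits that called it. Hsp90aa1, the stress-inducible Hsp90, measured 6231, 6339, 6406 and 6709.6 in the control libraries and 6835, 7004, 6928 and 7589 in the MCT libraries, a log2 difference of 0.14 ± 0.06 with groups that did not overlap. Dnaja1, a co-chaperone of Hsp70, measured 2440.5, 2395, 2569.5 and 2426 in the control libraries and 2629.5, 2652, 2731 and 2720.1 in the MCT libraries, a difference of 0.13 ± 0.06, again without overlap. Cryab, a small heat shock protein, measured 849, 401, 889 and 934 in the control libraries and 1018, 825, 1199 and 1326 in the MCT libraries, a difference of 0.56 ± 0.21, and Hsph1, a nucleotide exchange factor of Hsp70, had 0.18 ± 0.08. Hspa1a, an Hsp70 that stress induces, measured 117, 511, 85.1 and 129.9 on control and 117, 81.7, 118 and 568 on MCT, with 1 high library in each group, and a log2 difference of -0.01 ± 0.77. Hspa1a and Hspa1b are near-identical copies and each is uncertain alone.

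Heat shock factor binds repeats of GAA facing TTC, and the upstream windows of Hsph1 (chr5:149636337-149636586, minus strand) and Hspe1 (chr1:55087898-55088147, plus strand) are shown as the members of this list with such letters nearest the gene start and with 3 units in a row. They are the 250 bases before the start from RefSeq on GRCm38.p6, 5′ to 3′ on the gene's strand, and capitals mark each GAANNTTC or TTCNNGAA, overlapping matches joined.
Hsph1: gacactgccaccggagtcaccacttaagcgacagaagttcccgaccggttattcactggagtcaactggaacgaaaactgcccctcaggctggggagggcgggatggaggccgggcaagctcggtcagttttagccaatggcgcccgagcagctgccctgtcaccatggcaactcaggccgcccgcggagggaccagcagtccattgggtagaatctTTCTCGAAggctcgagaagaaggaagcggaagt
Hspe1: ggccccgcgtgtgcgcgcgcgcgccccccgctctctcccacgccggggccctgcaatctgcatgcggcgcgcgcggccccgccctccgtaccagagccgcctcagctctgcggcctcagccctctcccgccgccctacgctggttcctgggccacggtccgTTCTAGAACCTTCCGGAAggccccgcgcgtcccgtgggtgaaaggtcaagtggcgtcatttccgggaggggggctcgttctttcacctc
Both words read the same on the 2 strands. At least 1 of them occurs in 7 of the 10 list members with a RefSeq promoter, in 0 of 16 genes of the endoplasmic reticulum stress list, and in 12.8% of all 32851 promoters of that length. Hspa8, Hsp90aa1 and Cryab had no promoter in this set, so the count does not cover them. A 3-unit run (GAANNTTCNNGAA or TTCNNGAANNTTC, either strand) is in 2 of the 10 and in 0.466% of all promoters. The 2 genes, Hspe1 and Hspd1, are read from opposite strands and share the same bases, so this is 1 run. Counted by gene, with any of its promoters, the shares over all genes are 14.5% and 0.514%. Hsph1 measured 6686, 6206, 7150.4 and 7537 in the control libraries and 8116, 6881, 8612 and 7575 in the MCT libraries, and Hspe1, a mitochondrial chaperonin, 547, 567, 524 and 604 in the control libraries and 549, 636, 599.6 and 693 in the MCT libraries with a log2 difference of 0.14 ± 0.14. A match of letters is a description of the window and not a bound site.

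Genes of the endoplasmic reticulum stress response were nearly all slightly higher on MCT, 16 of 17 as labelled (median 0.12), 17 of 17 without the library labelled MCT 2 (median 0.17) and 17 of 17 without control library 1 as well (median 0.18). None was called. The diet groups did not overlap for 0, 1 and 1 of the 17 in these comparisons (2.87%, 4.58% and 7.4% of all genes). As labelled 1 had an unadjusted p under 0.05, against 2.11% of all genes in that direction. The median over members of log2 differences from their average was -0.17 and -0.15 in control libraries 2 and 4. It was 0.02 and 0.09 in control libraries 1 and 3, and -0.04 to 0.14 on MCT. Hsp90b1, the Hsp90 of that compartment, measured 8409.9, 7042, 7978 and 7489 in the control libraries and 8709, 8181, 8995 and 8581 in the MCT libraries, a log2 difference of 0.16 ± 0.07 with overlapping groups. Hspa5, its Hsp70, measured 7559, 5749, 7686 and 5428 in the control libraries and 7122, 6993, 8101 and 7901 in the MCT libraries, a difference of 0.20 ± 0.14. Control libraries 2 and 4 were low for Hspa5, and control libraries 1 and 3 were level with MCT. Over the 14 genes of the glucocorticoid response 12 were higher as labelled with a median of 0.18, 11 with a median of 0.04 without the library labelled MCT 2, and 12 with a median of 0.11 without control library 1 as well. Sgk1, a kinase that glucocorticoids induce, measured 2504, 1101, 1288 and 1427 in the control libraries and 1006, 2621, 2004 and 2195 in the MCT libraries, so that control library 1 and the library labelled MCT 2 stood highest in their groups.

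**Figure D4:**
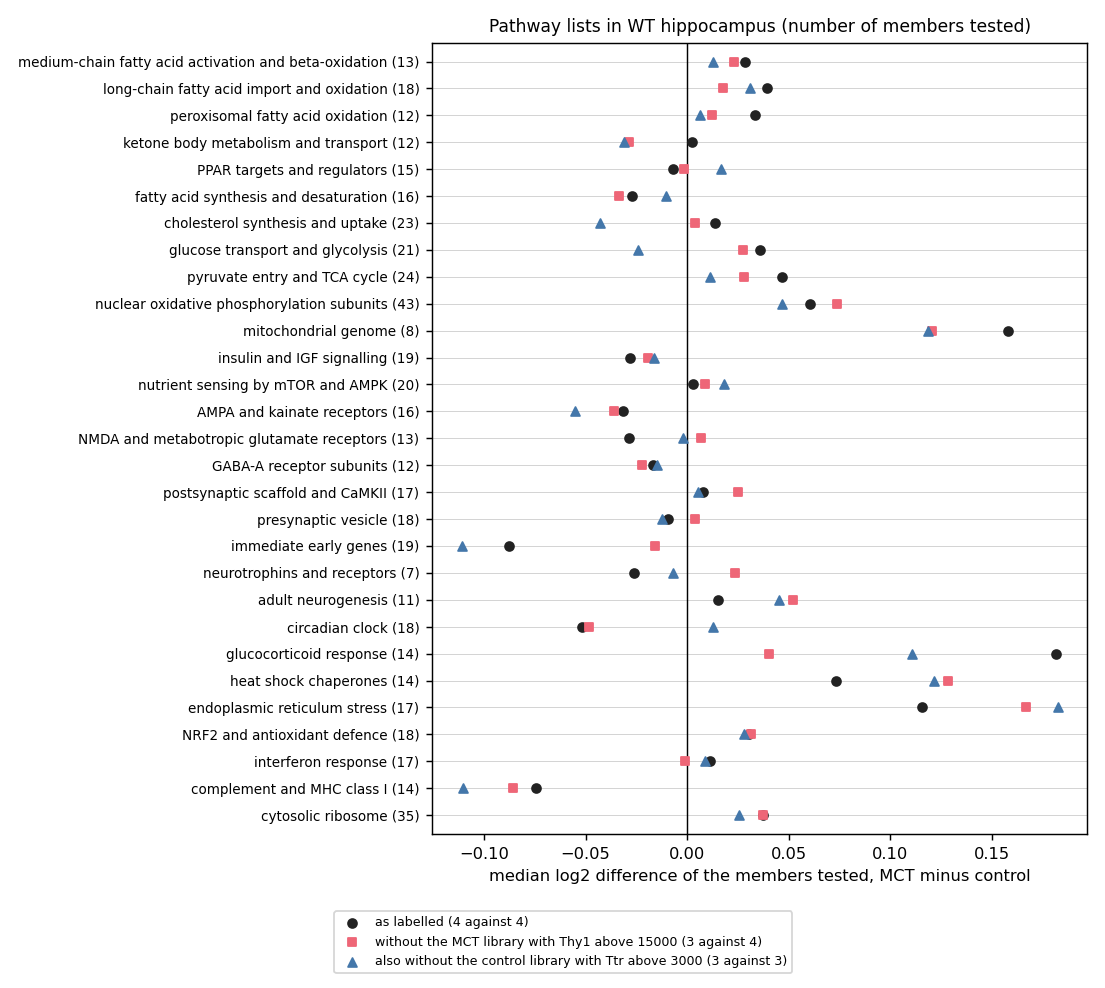
Median log2 difference (MCT minus control) of 29 pathway lists in WT hippocampus, with the number of members tested, as labelled (black circles), without the library labelled MCT 2 (red squares) and also without control library 1 (blue triangles). Most medians lie within 0.05 of 0, and the endoplasmic reticulum stress, heat shock, glucocorticoid and mitochondrial genome lists lie highest. The last of these is at 0 after quantile normalisation, which cannot show a difference in genes that keep their rank.

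Lists of neuronal function are given in the same order of comparisons. AMPA and kainate receptors were higher in 6, 5 and 3 of 16 (-0.03, -0.04 and -0.06), NMDA and metabotropic receptors in 5, 7 and 6 of 13 (-0.03, 0.01 and 0.00), and GABA-A subunits in 4, 4 and 5 of 12 (-0.02, -0.02 and -0.01). Postsynaptic scaffold genes were higher in 11, 12 and 10 of 17 (0.01, 0.02 and 0.01) and presynaptic vesicle genes in 7, 10 and 8 of 18 (-0.01, 0.00 and -0.01). Immediate early genes, which neuronal activity induces, were higher in 2, 8 and 3 of 19 (-0.09, -0.02 and -0.11), so most were lower in each comparison. Their median level by library ran from -0.23 to 0.37 on control and from -0.29 to 0.22 on MCT. The diet groups thus overlapped, and the spread between libraries was larger than these differences. Neurotrophins were higher in 3, 4 and 3 of 7 (-0.03, 0.02 and -0.01) and adult neurogenesis genes in 6, 6 and 6 of 11 (0.02, 0.05 and 0.05). Insulin and IGF signalling genes were higher in 5, 6 and 9 of 19 (-0.03, -0.02 and -0.02) and nutrient sensing genes in 10, 11 and 14 of 20 (0.00, 0.01 and 0.02). Clock genes were higher in 5, 4 and 10 of 18 (-0.05, -0.05 and 0.01), with the sign of the median turning once control library 1 was out. The medians of NMDA receptor, presynaptic and neurotrophin genes also changed sign. Nr1d1, the Rev-erb alpha repressor of the clock, measured 722, 876, 766 and 529 in the control libraries and 598, 589, 463 and 569 in the MCT libraries, a log2 difference of -0.36 ± 0.13, and Dbp, a clock output gene, measured 555, 625, 506 and 297 in the control libraries and 431, 342, 323 and 432 in the MCT libraries. Control library 4 was the lowest control for both, and collection times are not in the labels.

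Antioxidant genes were higher in 11, 11 and 10 of 18 (0.03, 0.03 and 0.03), interferon genes in 9, 8 and 9 of 17 (0.01, 0.00 and 0.01), and complement and MHC class I genes in 6, 4 and 5 of 14 (-0.07, -0.09 and -0.11). As labelled, 1 of the 18 antioxidant genes and 1 of the 17 interferon genes did not overlap between the groups, both lower on MCT. Of the 14 complement and MHC class I genes 1 did not overlap, B2m, higher on MCT and described above with the chromosome 2 genes. Over all tested genes 2.87% did not overlap. No gene of the lists in this paragraph and the one before was called.

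Markers of tissue next to the hippocampus were lower on MCT. For the choroid plexus, which makes cerebrospinal fluid, 0 of 12 tested markers were higher, with a median log2 difference of -1.19 as labelled and -1.12 without the library labelled MCT 2. Without control library 1 as well, 5 of 12 were higher and the median was -0.16. The summed level of all 15 markers ran from 4806 to 27012 in the control libraries, from 4806 to 5448 without control library 1 and from 4629.5 to 5259 in the MCT libraries. Of the defining markers, Folr1 was at 9.35 or lower outside control library 1, Slc4a5 at 5.60 or lower and at 0 in 2 MCT libraries, and Kcne2 at 5.26 or lower and at 0 in 3 libraries. F5, coagulation factor V, measured 366, 36.4, 28.0 and 25.1 in the control libraries and 22.2, 6.62, 17.9 and 10.1 in the MCT libraries and stayed without overlap, with a log2 difference of -2.03 ± 0.76 as labelled and -0.85 ± 0.73 in the 3 against 3 comparison. In bulk tissue, fewer cells of a type and less RNA per cell cannot be told apart.

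For fibroblasts of the meninges, the membranes around the brain, 0 of 14 markers were higher in any of the 3 comparisons, with medians of -0.50, -0.56 and -0.48. None was called. Their summed level ran from 4794 to 8396 on control and from 3579 to 5893 on MCT, and no marker was at 0 in a whole group. Slc13a4, a sulfate transporter, measured 159.6, 82.6, 47.7 and 117 in the control libraries and 83.0, 27.6, 21 and 30.2 in the MCT libraries, a log2 difference of -1.39 ± 0.58. Col3a1, a fibrillar collagen, measured 23.2, 25.2, 19.6 and 22.4 in the control libraries and 16.4, 11.0, 10.5 and 12.1 in the MCT libraries without overlap, a difference of -0.82 ± 0.48. For Slc13a4 MCT library 1 reached control library 2, and control library 3 was the lowest control. The part of this tissue in the other differences was not tested.

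Markers of the cells of the hippocampus itself differed less. In the same order of comparisons, CA2 and CA3 markers were higher in 9, 7 and 8 of 11 (0.11, 0.10 and 0.09), CA1 markers in 4, 4 and 5 of 8 (-0.04, 0.02 and 0.02), dentate granule cell markers in 3, 3 and 3 of 11 (-0.08, -0.07 and -0.04) and interneuron markers in 8, 4 and 3 of 15 (0.00, -0.04 and -0.06). Astrocyte markers were higher in 11, 11 and 11 of 13 (0.08, 0.03 and 0.04) and microglia markers in 9, 9 and 8 of 13 (0.11, 0.06 and 0.01). Oligodendrocyte markers were higher in 7, 11 and 12 of 14 (-0.01, 0.05 and 0.06), those of their precursors in 5, 6 and 5 of 10 (0.01, 0.04 and 0.01) and those of vessel cells in 5, 6 and 5 of 15 (-0.09, -0.08 and -0.15). Ependymal markers were higher in 4, 5 and 6 of 10 (-0.11, -0.01 and 0.08) and blood markers in 4, 4 and 3 of 6 (0.15, 0.18 and 0.03). Markers of neocortex, thalamus and striatum were higher in 5, 5 and 9 of 17 (-0.18, -0.10 and 0.01). The medians of CA1, interneuron, oligodendrocyte, ependymal and neocortex markers changed sign between the comparisons. Dkk3, a secreted protein of CA3 cells, was higher without overlap, with 5789, 5585, 5759.6 and 5945 in the control libraries and 6032, 5953, 6376 and 6668 in the MCT libraries and a log2 difference of 0.12 ± 0.06. No marker was called in any of the 14 lists.

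**Figure D5:**
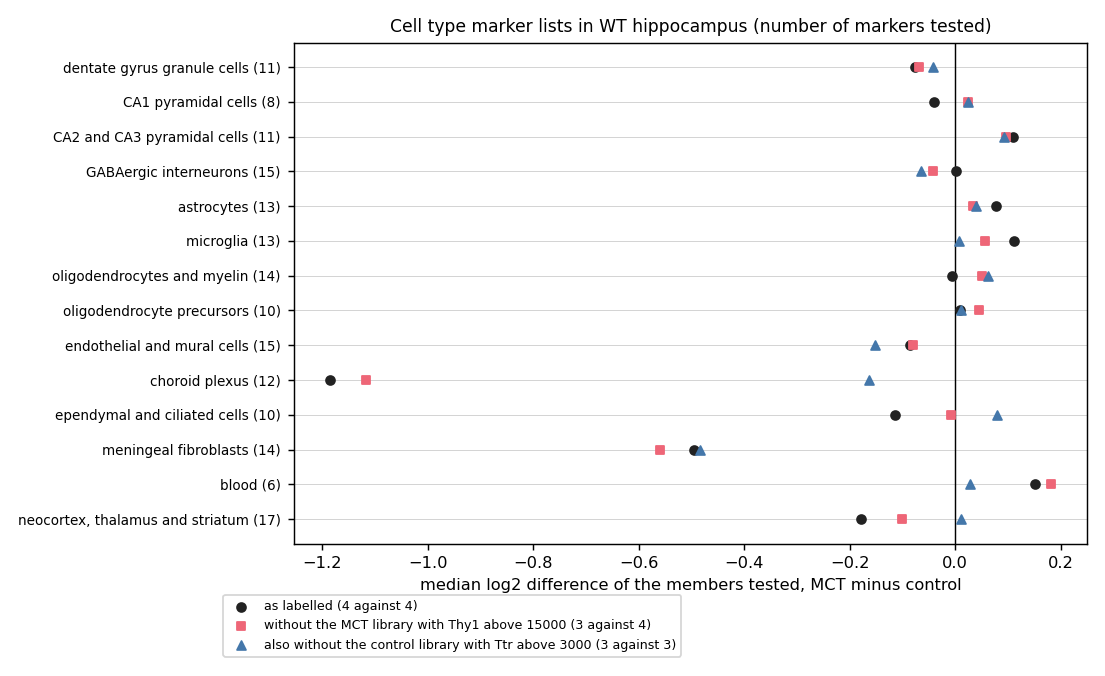
Median log2 difference (MCT minus control) of 14 cell type marker lists in WT hippocampus, with the number of markers tested, for the same 3 sets of libraries as the pathway lists. The choroid plexus median moves from -1.19 to -0.16 once control library 1 is out, while that of meningeal fibroblasts stays between -0.56 and -0.48.

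Whether the diet difference in WT departed from that in 3xTg mice was tested as an interaction over the 4 groups (4 WT control, 4 WT MCT, 3 3xTg control and 4 3xTg MCT libraries). As labelled, of 14162 genes 0 passed in limma (0.0%), 393 had an unadjusted p under 0.05 (2.78%), and edgeR and DESeq2 each called 0. With the 3 libraries whose Thy1 goes against the label left out, 2 genes passed, both also at a larger difference than as labelled (-1.81 ± 0.89 for Pla2g4e and -2.82 ± 1.12 for Eif3j2). These were Pla2g4e, at an interaction of -3.05 ± 0.49, and Eif3j2, at -3.94 ± 0.65 (log2, limma adjusted p 0.0267 each). Without those libraries the 3xTg control group held 2 libraries, with Pla2g4e at 28.7 and 32.7 against 24.6 to 37.8 in 3xTg MCT. In the same fit the WT difference alone was -3.05 ± 0.33 for Pla2g4e (adjusted p 2.57e-05) and -4.21 ± 0.43 for Eif3j2 (adjusted p 2.04e-05). The interaction of Exd1 was -1.59 ± 0.37 as labelled and that of Hspa8 0.71 ± 0.28, neither past the test. Hspa8 measured 6795, 6057 and 5288 in the 3xTg control libraries, a range that held 3 of the 4 WT MCT libraries and 1 of the 4 WT control libraries.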

How the data were processed

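Polyadenylated hippocampal RNA of 24 libraries was sequenced, and 1 table of 21793 genes was used. Its signal values are normalised counts that the authors deposited. Per the submitters' processing notes, Trimmomatic and STAR on GRCm38 came before counting. For the gene counter, annotation, size factors and handling of molecular identifiers, nothing is stated in the labels. All values were whole multiples of 1 step per library (within 0.01 reads), so whole reads were recovered for edgeR and DESeq2. Multi-mapping, PCR duplicates and strand can change the counts of similar or overlapping genes.

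The filter kept genes with 3 or more libraries at 10 or above. Values as log2(value + 1) were fitted with limma 3.58.1 (R 4.3.3), with 1 mean for each of 6 groups, the other groups sharing the spread, a mean-dependent prior and Benjamini-Hochberg adjustment over all kept genes. Calls are genes with an adjusted p below 0.05. Fold changes on this scale understate the change of low genes. Alternatives used other pseudocounts, filters, scalings, sample sets, a replicate block, edgeR 4.0.16 and DESeq2 1.42.0, and the fit was tested on simulated data. Python 3.11.15, pandas 2.3.3 and scipy 1.17.1 did the rest, and positions are from GENCODE on GRCm38 by symbol. The table held 26 names altered to dates.

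Named genes were those with a mean of at least 32 and a call, or in a direction with fewer than 8 calls the smallest p up to 8 (5 in the 3 against 3 comparison), up to 3 members of each list, and fixed route genes, leaving out predicted genes. Eif3j2, Fam227b, most of the chromosome 2 genes, Susd2, Ppp1r3b, Hspa1a, Hspe1, Dnaja1, Hsph1, Sgk1, Dbp and Col3a1 were named after their values were seen. Members and lists were chosen with earlier results of these data known. Samples of the same replicate number did not deviate together (correlations from -0.08 to 0.09 over 4 pairs), so the numbers were not taken as pairs. Of the fixed route genes, 1 is not reported here.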

Additional observations from a re-analysis of the deposited data

Results flagged for a closer look

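In 20 of 170 groups of 4 libraries examined, 1 library stood far from the other 3, and chance alone marks about 1 group in 20. In the control group, library 2 stood low for Mfap1b at 126, for Ivd at 759 and for Eif3j1 at 25.2, 3 genes of the chromosome 2 stretch. Control library 4 stood high for Pigf at 139.8, and control library 1 low for Slc16a1 at 936. In the MCT group, the library labelled MCT 2 stood apart for Thy1 at 23048, for Trub1 at 419, for Slc16a1 at 735 and for Eif3j2 at 0, which is a step of only 2 reads. MCT library 1 stood apart for Zfp963 at 113.

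The other 10 concern list levels, the median over members of log2 differences from their average. Control library 1 stood apart for choroid plexus markers at 2.90, for nutrient sensing at 0.0531, for neurotrophins at -0.20 and for CA1 markers at -0.14. Control library 4 stood apart for the circadian clock at -0.17, heat shock chaperones at 0.0331 and the interferon response at -0.0859. Control library 2 stood apart for fatty acid and ketone receptors at 1.12. MCT library 3 stood apart for medium-chain fatty acid genes at -0.11, and MCT library 1 for interneuron markers at 0.0597. Each of these libraries stays in the comparison as labelled.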

How the results depend on the processing

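As labelled, 1 gene was called. An added value of 5, a mean of at least 50, quantile normalisation, the replicate block, edgeR, leaving out control library 1 and leaving out both that library and the library labelled MCT 2 each gave 0 calls. A fit of the 2 WT groups alone or of the WT libraries alone gave 2 (Eif3j2 and Pla2g4e), and no filter, DESeq2 or leaving out the 3 libraries with Thy1 against the label gave 3. Leaving out 1 library at a time gave 0 to 1. Without the library labelled MCT 2 (1 call), an added value of 5, a mean of at least 50, the replicate block and edgeR gave 0, the WT libraries alone and library weights 2, the 2 groups alone and leaving out the 3 libraries 3, no filter 4 and DESeq2 5. Leaving out 1 further library gave 0 to 2. Without control library 1 as well (0 calls), an added value of 0.5, quantile normalisation and library weights gave 1, the 2 groups alone and the WT libraries alone 2, leaving out the 3 libraries 3 and no filter 5. Leaving out 1 further library gave 0 to 2. The interaction had 0 calls, and 2 without the 3 libraries, with 26 of 27 alternatives at 0. The cause of these moves was not tested.

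Over 40 named genes and 954 alternatives no difference changed sign with a call, 15 calls were lost, all of Eif3j2, and 9 were gained. Over 45 list medians and 1079 alternatives 20 moved by more than the spread between libraries. The receptor list gave no value at a mean of at least 50. Replicate numbers are shared between the groups but did not pair the samples: 1 of 4 control libraries correlated best with the MCT library of its own number, and with the replicate block the Eif3j2 call was lost (limma adjusted p 0.102). Genes at few reads, such as Eif3j2 on MCT, Gpr84 and Serinc4, are limited by depth, and the median standard error of a log2 difference was 0.0952.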
